A study of Mus musculus with 2 samples.

Results

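The matrix metalloproteinases (MMPs) and their tissue inhibitors (TIMPs) were described in cells of the mouse mitral valve. The 9 genes were 6 MMPs (Mmp2, Mmp3, Mmp9, Mmp12, Mmp13 and Mmp14) and 3 inhibitors (Timp1, Timp2 and Timp3), of 32285 genes in each count matrix. They were selected by family and on their levels in an earlier look at these same 2 libraries, so that their levels by cell type and library are a description. Single-cell RNA-Seq was performed on mitral valves of 12-week-old mice on a C57BL/6J background, with 1 library per genotype. The controls were Fbn1+/+ littermates (WT), and the other library came from Fbn1 mgR/mgR mice (mgR), whose hypomorphic allele lowers fibrillin-1 and is carried in every cell type. Live cells were sorted after an enzymatic digest (collagenase with elastase), and each library pooled cells of more than 1 mouse.

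Matrix metalloproteinases are zinc-dependent enzymes that are made as inactive precursors and cut collagens, elastin, proteoglycans and other matrix proteins once their propeptide is removed. TIMPs bind the active site of MMPs and block it, and the balance of both sets the turnover of the matrix in which valve cells lie. In the leaflet, interstitial fibroblasts make and remodel most of the collagen, proteoglycan and elastic fibre, while macrophages and neutrophils carry proteases of their own.

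The genes lie at chr8:92827291-92853420 (Mmp2, plus strand), chr9:7445822-7455975 (Mmp3, plus), chr2:164940780-164955850 (Mmp9, plus), chr9:7344381-7369499 (Mmp12, plus), chr9:7272514-7283331 (Mmp13, plus), chr14:54431612-54445364 (Mmp14, plus), chrX:20870166-20874735 (Timp1, plus), chr11:118301069-118355740 (Timp2, minus) and chr10:86300372-86349506 (Timp3, plus) of the GRCm38 build. Mmp13, Mmp12 and Mmp3 are neighbours within 183 kb of chromosome 9, an interval with 4 protein-coding genes in which Mmp1b on the other strand overlaps Mmp12. Timp1 and Timp3 each overlap a synapsin gene (Syn1 and Syn3) on the other strand. Timp2 overlaps Cep295nl on its own strand, so that its counts carry some uncertainty of assignment.

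Promoter sequences are shown for the 3 neighbours on chromosome 9, because the macrophage genes Mmp12 and Mmp13 differed in level between the libraries in the same direction while the fibroblast gene Mmp3 beside them had a ratio near 1. The sequences are RefSeq promoters of GRCm38.p6 and run from 250 bases before to 50 bases after an annotated start, written 5′ to 3′ on the strand of the gene. Capitals mark matches to TGAGTCA or its reverse complement TGACTCA, the letters bound by activator protein 1 (AP-1, dimers of Fos and Jun proteins), and to TATAAA. The Mmp12 sequence is the promoter of its downstream start, the Mmp3 promoter lies at chr9:7445572-7445871, that of Mmp12 at chr9:7347124-7347423 and that of Mmp13 at chr9:7272264-7272563, all on the plus strand.
Mmp3: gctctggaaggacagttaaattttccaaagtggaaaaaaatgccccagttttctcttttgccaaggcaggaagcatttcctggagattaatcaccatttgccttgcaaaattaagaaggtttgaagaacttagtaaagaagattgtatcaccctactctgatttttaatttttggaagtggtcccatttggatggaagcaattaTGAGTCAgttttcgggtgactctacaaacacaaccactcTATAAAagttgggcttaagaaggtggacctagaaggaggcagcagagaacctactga
Mmp12: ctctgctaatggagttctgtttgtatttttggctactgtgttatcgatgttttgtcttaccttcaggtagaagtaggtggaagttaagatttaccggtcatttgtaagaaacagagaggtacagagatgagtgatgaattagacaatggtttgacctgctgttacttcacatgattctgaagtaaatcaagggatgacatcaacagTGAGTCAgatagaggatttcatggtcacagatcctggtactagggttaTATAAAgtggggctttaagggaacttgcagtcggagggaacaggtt
Mmp13: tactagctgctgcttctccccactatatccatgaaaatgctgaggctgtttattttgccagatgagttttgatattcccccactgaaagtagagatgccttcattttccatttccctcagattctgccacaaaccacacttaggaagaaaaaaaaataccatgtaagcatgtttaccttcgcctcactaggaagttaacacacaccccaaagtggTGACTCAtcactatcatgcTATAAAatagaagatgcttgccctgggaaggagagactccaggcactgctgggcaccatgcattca

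The AP-1 letters began 46 bases before the start in Mmp3, 44 bases in Mmp12 and 35 bases in Mmp13. TATAAA began 7 bases before the start in Mmp3, 16 bases in Mmp13 and -4 bases in Mmp12, which is past the start. All distances are from the annotated start. Searched on both strands, 5.20% of 32851 mouse promoters of that length held the AP-1 letters, 13.6% held TATAAA and 0.941% held both. Of the 9 genes, 7 had a promoter entry, with 8 promoters in all. The 3 promoters shown held both motifs, whereas the upstream Mmp12 promoter and those of Mmp14, Timp1, Timp2 and Timp3 held neither. Mmp2 and Mmp9 had no entry. A match describes letters in this window and says nothing about binding.

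The WT matrix held 1104 barcodes and 5381844 UMIs (unique molecular identifiers, which tag each captured RNA molecule), against 3802 barcodes with 28215539 UMIs in mgR. Cells were kept if they showed 200 to 5000 genes and no more than 10% of UMIs from mitochondrial genes, which left 875 WT cells with a median of 5033 UMIs and 3438 mgR cells with a median of 7370 UMIs. Fbn1 stood at 171 CPM (counts scaled to a total of 1e+06) in WT and 135 CPM in mgR fibroblasts (289 and 839 UMIs, ratio 0.791, 95% interval 0.691 to 0.907). The study describes Fbn1 mRNA of these mice as severely reduced, and its own reading was RT-PCR of cultured dermal fibroblasts. The decrease read here, in UMIs of valve fibroblasts, was milder, but the cells and the measure were not the same. The reason was not tested. Both libraries mixed cells of both sexes, although the study's methods name males alone. Xist without Y-linked UMIs was found in 28.1% of WT and 60.8% of mgR cells, and Y-linked UMIs without Xist in 38.5% and 21.1%, so ratios are also given within each of these sets of cells. The libraries shared 2 barcodes, of which 0 were among the kept cells.

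Cell classes followed fixed UMI sums. Fibroblasts had at least 10 UMIs of Col1a2, Col3a1 and Dcn together, macrophages at least 10 of C1qa, C1qb and C1qc, endothelium at least 2 of Pecam1 and Cdh5, and neutrophils at least 10 of S100a8 and S100a9. A class held the cells that met its rule and no other. This gave 322 WT and 878 mgR fibroblasts, 224 and 1534 macrophages, 29 and 150 endothelial cells, 17 and 38 neutrophils, and 250 and 484 other cells that met no rule. In each class and library, all 6 markers that the rule had not used, such as Lum for fibroblasts or Csf1r for macrophages, were highest in their own class. With 1 library per genotype no test was possible. Ratios are CPM in mgR over CPM in WT, with exact 95% intervals that cover counting error only and neither animals nor libraries. A difference between the libraries cannot be told apart from one between batches.

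Mmp2, Mmp3, Timp1 and Timp3 were highest in fibroblasts, Mmp9 in neutrophils, and Mmp12 and Mmp13 in macrophages, in both libraries (plot of levels by class). Mmp14 and Timp2 were spread over several classes. In WT, 6 of the 9 genes were highest in fibroblasts, where 26% of 12073 genes with at least 10 UMIs were. In mgR the count was 4 of 9, beside 27.3% of 14672 genes. The 2 genes that made this difference were Mmp14, at 63.4 CPM in mgR fibroblasts and 64.2 CPM in mgR endothelium, and Timp2, at 1080 and 1104 CPM in mgR fibroblasts and macrophages. The intervals of these neighbouring classes overlapped in both cases, so that their order was not resolved at this depth. The same held for Mmp12 in mgR, at 113 CPM in macrophages (107 to 119) and 100.2 CPM in the other cells (89.9 to 111).

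**Figure D1:**
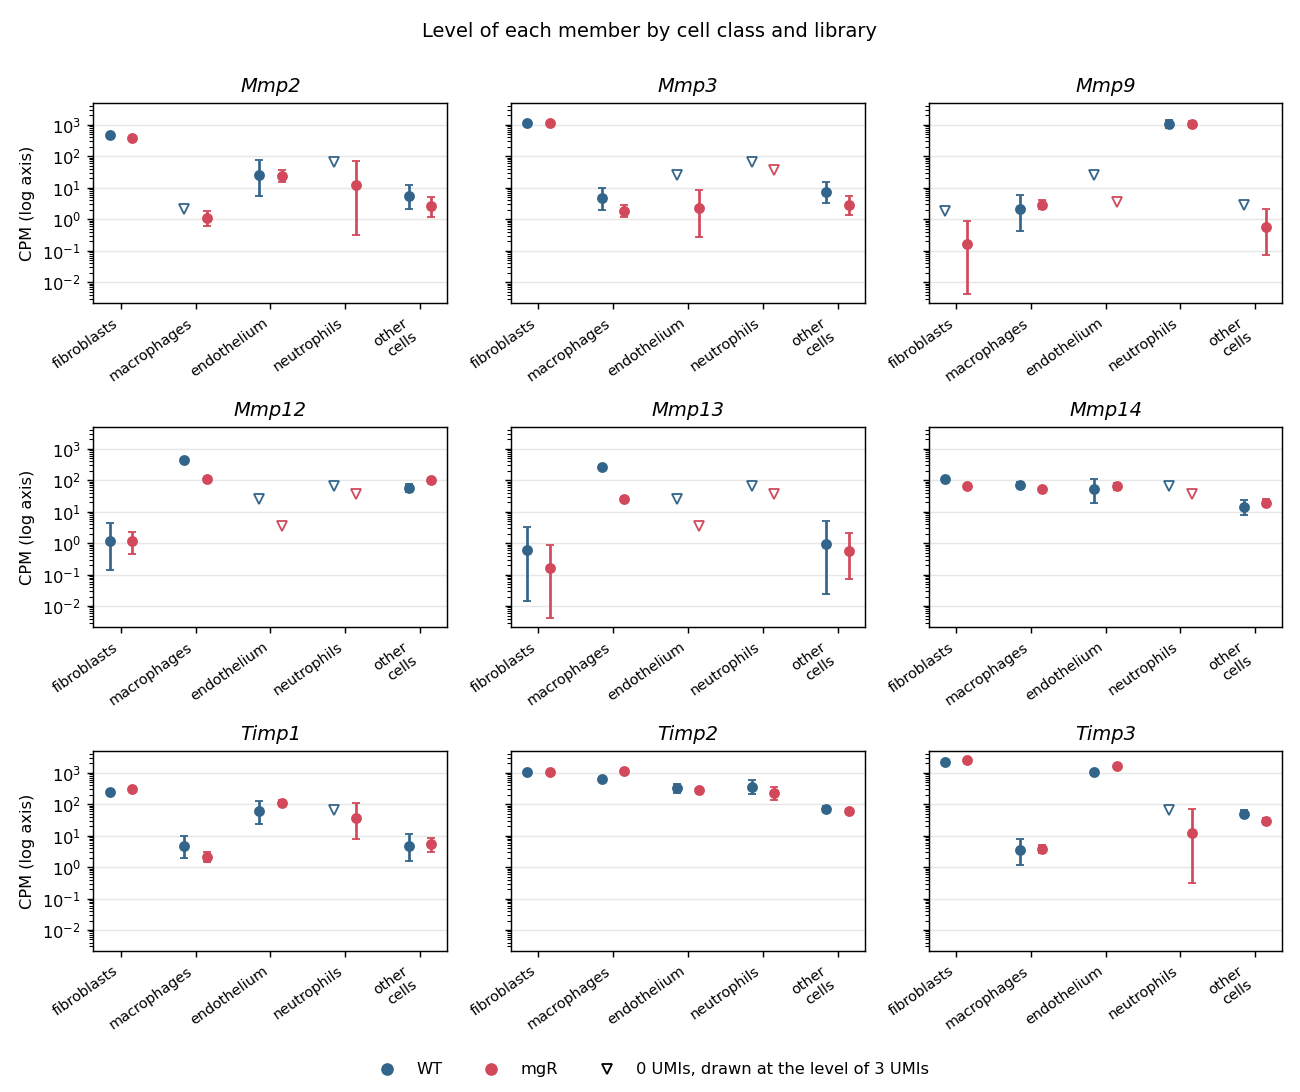
Level of each gene in CPM (log axis) in the 4 cell classes and the other cells, WT in blue and mgR in red. Points are summed UMIs over the cells of a class, bars are exact Poisson 95% intervals, and open triangles mark 0 UMIs at the level that 3 UMIs would give. Mmp12 and Mmp13 stand apart between the libraries in macrophages, at 441 against 113 CPM and at 271 against 25.6 CPM.

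Mmp2 encodes gelatinase A, which cuts denatured collagen and basement membrane collagen. It was read at 489 CPM in WT fibroblasts (826 UMIs, 95% interval 456 to 524) and at 368 CPM in mgR fibroblasts (2280 UMIs, 353 to 383). The ratio was 0.752 (0.694 to 0.815), a lower level in mgR by less than 1.5-fold. In other classes Mmp2 was low. Macrophages had 0 UMIs in WT, which allows up to 3, and 15 UMIs (1.12 CPM) in mgR. Endothelial cells stood at 25.5 and 24.1 CPM, or 5.22% and 6.55% of the fibroblast level. Mmp2 was found broadly among fibroblasts, with at least 1 UMI in 78.0% of cells in each library and a maximum of 17 UMIs in a cell. After each cell was thinned to 2000 UMIs, the share was 60.3% in WT and 47.0% in mgR. Thinning left out 30 WT and 33 mgR fibroblasts with fewer UMIs. Among Xist cells the ratio was 0.879 (0.755 to 1.03) and among Y-linked cells 0.805 (0.704 to 0.922).

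Mmp9 encodes gelatinase B, which neutrophils store in granules. Neutrophils held 49 of its 52 UMIs in WT and 87 of its 136 in mgR. The level was 1094 CPM (810 to 1447) in WT and 1066 CPM (854 to 1315) in mgR, a ratio of 0.974 with an interval of 0.679 to 1.41. It was present in 14 of 17 WT and 29 of 38 mgR neutrophils. These are few cells. In 5 WT and 8 mgR neutrophils with Y-linked UMIs the level was 536 and 1541 CPM (8 and 28 UMIs, ratio 2.87, 1.28 to 7.30), and WT had 0 Xist neutrophils to compare. Fibroblasts had 0 and 1 Mmp9 UMIs, and endothelium 0 in both libraries. Macrophages had 3 and 39 UMIs, at 2.08 and 2.91 CPM. The 3 WT UMIs came from 1 cell, while the mgR UMIs came from 24 cells and all but 1 of those UMIs lay in cells richer in Lyve1, Folr2 and Cd163.

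Mmp3 encodes stromelysin 1, which cuts proteoglycans and activates other MMPs. Its level in fibroblasts was 1166 CPM in WT (1969 UMIs, 1115 to 1219) and 1110 CPM in mgR (6883 UMIs, 1084 to 1137), a ratio of 0.952 (0.906 to 1.0). Behind this like mean, the gene was uneven from cell to cell. A UMI was found in 33.9% of WT and 42.7% of mgR fibroblasts, and a single cell held up to 315 UMIs in WT and 245 in mgR. The 10 cells with most Mmp3 carried 49.6% of its UMIs in WT and 19.4% in mgR. Without the 5% of fibroblasts with most Mmp3, the log2 ratio was 0.45 (0.34 to 0.57) in place of -0.07, although this removal takes 62.6% of the WT and 48.3% of the mgR UMIs and so raises the ratio by construction. Among Xist cells the ratio was 1.29 (1.17 to 1.43) and among Y-linked cells 0.755 (0.699 to 0.814), on either side of 1. The pooled Mmp3 ratio therefore depended on which cells entered it. Macrophages held 7 and 25 Mmp3 UMIs, or 0.416% and 0.168% of the fibroblast level. In macrophages, 4 other fibroblast transcripts (Col1a1, Lum, Mgp and Serping1) stood at 0.106% to 0.403% of their fibroblast level in WT and 0.139% to 0.205% in mgR, so that the mgR value lay within the range of these background transcripts and the WT value just above it.

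**Figure D2:**
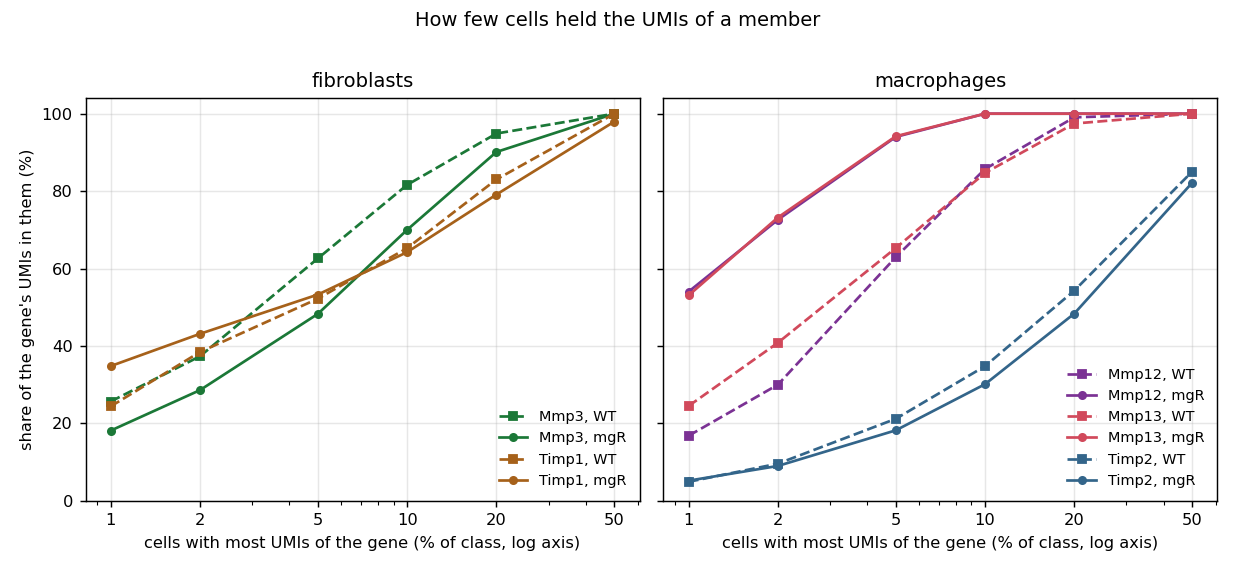
Share of a gene's UMIs (y axis, percent) held by the cells of the class with most UMIs of that gene (x axis, percent of cells, log axis), for fibroblasts and macrophages, WT dashed and mgR solid. The highest 5% of fibroblasts held 62.6% of Mmp3 UMIs in WT and 48.3% in mgR, and the highest 5% of macrophages held 63.0% and 94.0% of Mmp12 UMIs but 21.2% and 18.2% of Timp2 UMIs.

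Mmp12 encodes macrophage metalloelastase, which cuts elastin. It stood at 441 CPM in WT macrophages (637 UMIs, 407 to 477) and at 113 CPM in mgR macrophages (1518 UMIs, 107 to 119), a ratio of 0.256 (0.234 to 0.282). Mmp12 was therefore lower in the mgR library, in the share of cells with a UMI and in the CPM of those cells. The CPM of those cells was taken without thinning or an interval, while depth differed between the libraries. A UMI was found in 22.8% of WT (17.4 to 28.8) and 8.47% of mgR macrophages (7.13 to 9.98), or 18.3% and 5.95% after thinning, and the cells that had one carried 1822 and 1106 CPM. The share in fibroblasts, which should lack the gene, was 0.621% and 0.683%, at median depths of 5182 and 6733 UMIs against 6013 and 8332 in macrophages. The ratio was 0.327 (0.278 to 0.386) among Xist cells and 0.183 (0.154 to 0.217) among Y-linked cells, so its direction held in both.

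Mmp12 was also carried by cells with dendritic cell transcripts. Among the other cells it stood at 57.0 CPM in WT and 100.2 CPM in mgR (61 and 344 UMIs, ratio 1.76, 1.34 to 2.35), and 58 of those 61 and 327 of those 344 UMIs lay in cells with at least 2 UMIs of Flt3, Cd209a, Xcr1 and Ccr7 together. These cells were 19.6% of the other cells in WT and 36.2% in mgR. Cells with at least 2 UMIs of the 6 macrophage markers were 21.2% and 29.8% of the other cells. They held 48 of the same 61 and 277 of the same 344 UMIs, so most of these UMIs lay in cells with both kinds of marker. Within the macrophage class, 6 WT and 28 mgR cells met the dendritic mark and held 150 and 223 Mmp12 UMIs. Without them the macrophage ratio was 0.281 (0.253 to 0.313) for Mmp12 and 0.103 (0.0877 to 0.120) for Mmp13. Monocyte markers (Ly6c2, Plac8, Ccr2 and Chil3) reached 2 UMIs in 7.14% and 7.04% of macrophages, which held 18.1% and 28.8% of Mmp12 UMIs. Red cell transcripts (Hba-a1 and Hbb-bs) reached 2 UMIs in 28.1% of WT and 9.32% of mgR macrophages, and Mmp12 stood at 461 and 88.2 CPM in those and at 432 and 116 CPM in the rest, so the lower mgR level was present with and without them.

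Mmp13 encodes collagenase 3, which cuts fibrillar collagen and is the main interstitial collagenase of the mouse. In this valve it was a macrophage transcript, since macrophages held 392 of its 394 UMIs in WT and 343 of its 356 in mgR. Fibroblasts had 1 UMI in each library. The macrophage level was 271 CPM in WT (245 to 300) and 25.6 CPM in mgR (22.9 to 28.4), a ratio of 0.0942 (0.0812 to 0.109). Of the 9 genes this was the lowest ratio in any class in which the gene had at least 10 UMIs. A UMI was present in 24.6% of WT and 6.32% of mgR macrophages, or 17.4% and 3.17% after thinning. The cells with a UMI carried 1067 CPM in WT and 376 CPM in mgR, again without thinning or an interval. Ratios were 0.0619 (0.0499 to 0.0769) among Xist cells and 0.113 (0.0864 to 0.147) among Y-linked cells. Mmp12 and Mmp13 shared cells in WT: among thinned macrophages, Mmp13 was present in 40.0% of the 40 cells with Mmp12 and in 12.4% of the rest. In mgR it was present in 10.0% of the 90 cells with Mmp12 and in 2.74% of the rest.

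Few macrophages carried most of these transcripts. The highest 5% held 63.0% of Mmp12 and 65.3% of Mmp13 UMIs in WT, or 11 cells, and 94.0% and 94.2% in mgR, or 77 cells. Without that 5% the log2 ratio was -4.49 for Mmp12 and -5.89 for Mmp13, against -1.96 and -3.41 with all cells. The removal picks cells by the gene's own UMIs and takes a larger part of them in mgR, which lowers the ratio by construction, so nothing is read from it on the direction.

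Mmp14 encodes a membrane-anchored MMP that cuts collagen at the cell surface and activates the Mmp2 precursor together with Timp2. In fibroblasts it stood at 107 CPM in WT (181 UMIs, 92.1 to 124) and 63.4 CPM in mgR (393 UMIs, 57.3 to 70.0), a ratio of 0.592 (0.495 to 0.709). In macrophages it stood at 72.7 and 52.3 CPM (105 and 702 UMIs, ratio 0.719, 0.585 to 0.892). Mmp14 was thus read at a lower level in mgR in both classes, and by more than 1.5-fold in fibroblasts alone. Whether the classes differed in this was not tested. In endothelium it stood at 51.0 and 64.2 CPM, with 6 and 56 UMIs and an interval of 0.543 to 3.57. Fibroblast ratios were 0.719 (0.521 to 1.01) among Xist cells and 0.569 (0.422 to 0.768) among Y-linked cells, and macrophage ratios were 0.958 (0.641 to 1.5) and 0.589 (0.428 to 0.819). The lower macrophage level was not resolved among Xist cells.

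Timp1, a secreted inhibitor that many cells raise under cytokines and injury, stood at 240 CPM in WT fibroblasts (406 UMIs, 218 to 265) and 300.4 CPM in mgR fibroblasts (1862 UMIs, 287 to 314), a ratio of 1.25 (1.12 to 1.39). A UMI was present in 39.4% and 54.3% of fibroblasts, or 24.7% and 28.4% after thinning. A single mgR cell held 184 UMIs, and the 9 mgR cells with most Timp1 held 34.8% of its UMIs. The ratio was 1.72 (1.39 to 2.15) among Xist cells and 0.902 (0.762 to 1.07) among Y-linked cells, and Timp1 itself is on the X chromosome. Timp1 was thus higher in mgR in Xist fibroblasts, and its interval held 1 in Y-linked fibroblasts. Endothelium stood at 59.5 and 111 CPM (7 and 97 UMIs, ratio 1.87, 0.873 to 4.77). Macrophages held 7 and 29 UMIs, 2.02% and 0.719% of the fibroblast level.

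Timp2, which inhibits MMPs and also takes part in the activation of Mmp2 at the cell surface, was read in all 4 classes of both libraries. Fibroblasts stood at 1026 CPM in WT (1733 UMIs) and 1080 CPM in mgR (6693 UMIs), with a ratio of 1.05 (0.998 to 1.11). Macrophages stood at 621 CPM in WT (897 UMIs, 581 to 663) and 1104 CPM in mgR (14816 UMIs, 1086 to 1122), a ratio of 1.78 (1.66 to 1.90). A UMI was found in 88.4% of WT and 94.9% of mgR macrophages, or 63.3% and 78.4% after thinning. The higher macrophage level in mgR was spread over many cells, and it held among Xist cells (1.96, 1.73 to 2.22) and Y-linked cells (1.76, 1.59 to 1.96). Endothelium stood at 323 and 283 CPM and neutrophils at 357 and 221 CPM, from 38 and 247 UMIs and from 16 and 18 UMIs, with intervals that held 1.

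Timp3 encodes the inhibitor that binds to the extracellular matrix and also blocks several ADAM and ADAMTS enzymes. It was the highest of the 9 genes in fibroblasts in CPM, at 2263 CPM in WT (3821 UMIs, 2191 to 2336) and 2509 CPM in mgR (15550 UMIs, 2469 to 2548), a ratio of 1.11 (1.07 to 1.15). Nearly every fibroblast carried it, 95% in WT and 98.1% in mgR. Endothelium stood at 1021 CPM in WT (120 UMIs, 846 to 1220) and 1613 CPM in mgR (1407 UMIs, 1530 to 1700), a ratio of 1.58 (1.31 to 1.92). The difference was smaller within each sex-linked set, at 1.24 (0.956 to 1.63) among Xist cells and 1.20 (0.841 to 1.75) among Y-linked cells. Macrophages had 5 and 52 UMIs, at 0.153% and 0.154% of the fibroblast level, within the range of the background transcripts.

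Several of the genes were at or near 0 UMIs in neutrophils and endothelium. In neutrophils Mmp3, Mmp12, Mmp13 and Mmp14 had 0 UMIs in both libraries, Mmp2 and Timp3 had 0 and 1, and Timp1 had 0 and 3, where a 0 allows up to 67.0 CPM in WT and 36.8 CPM in mgR. In endothelium Mmp12 and Mmp13 had 0 UMIs in both libraries and Mmp3 had 0 and 2, where a 0 allows up to 25.5 CPM in WT and 3.44 CPM in mgR.

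**Figure D3:**
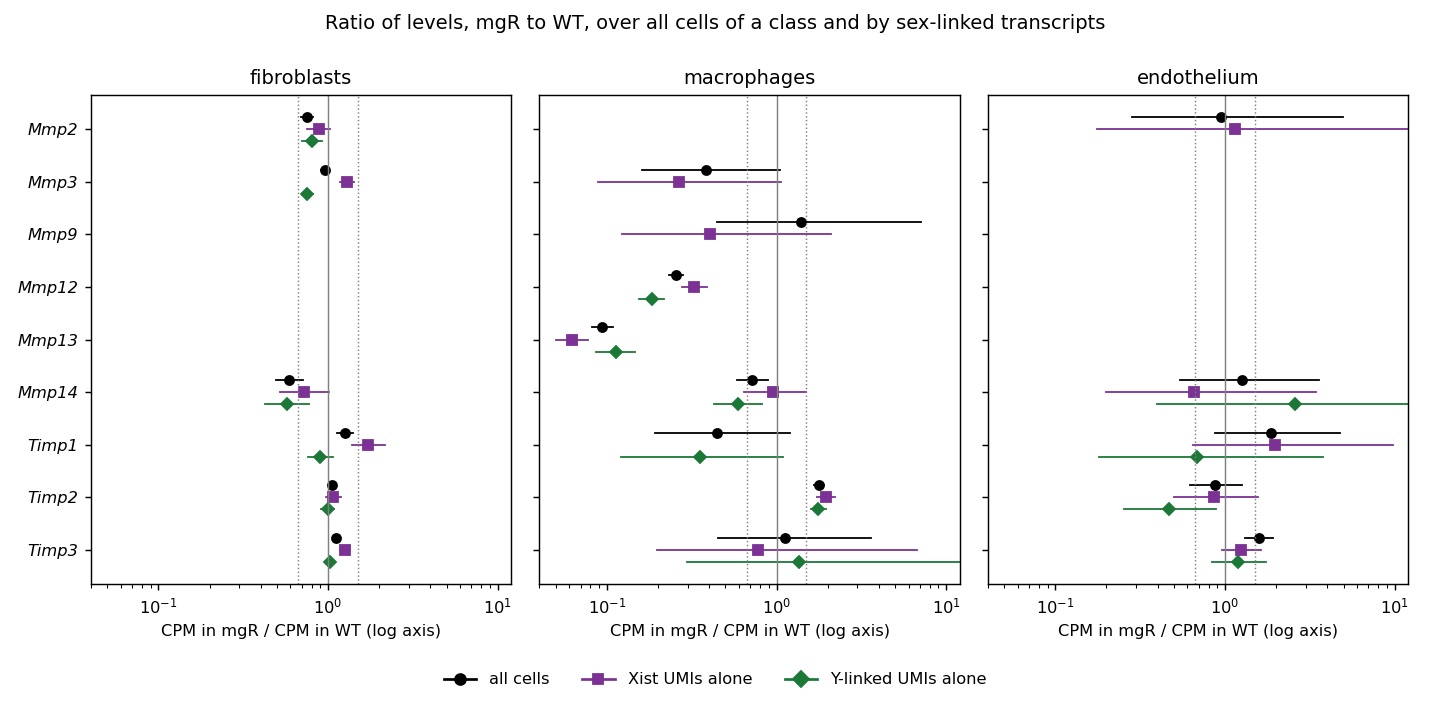
Ratio of CPM in mgR to CPM in WT (log axis) for each gene in fibroblasts, macrophages and endothelium, over all cells of the class (black) and over cells with Xist UMIs alone (purple) or Y-linked UMIs alone (green). Lines are exact 95% intervals of counting error, cut at the edge of the panel, dotted lines mark 1.5-fold, and sums under 10 UMIs or with 0 UMIs in a library are left out. Mmp12 and Mmp13 lie below 1 and Timp2 above 1 in all 3 sets of macrophages, and Mmp3 lies on both sides of 1 in fibroblasts.

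The ratios were then counted with 1 rule for all genes. A gene counted as higher or lower when it had at least 10 UMIs over both libraries, differed by at least 1.5-fold and had an interval that left out 1. In fibroblasts 6 of the 9 genes had enough UMIs, 0 were higher (4.08% of 12615 genes were) and 1 was lower, Mmp14 (5.56% of genes). In macrophages all 9 had enough UMIs, 1 was higher, Timp2 (7.08% of 11907 genes), and 2 were lower, Mmp12 and Mmp13 (4.11%). In endothelium 5 had enough UMIs, 1 was higher, Timp3 (2.73% of 8432 genes), and 0 were lower (4.08%). With so few genes these counts are a description. Among ratios whose interval left out 1, those nearest to the limit were Mmp14 in macrophages at 0.719, which did not count, and Timp3 in endothelium at 1.58, which did. The median log2 ratio over the genes with enough UMIs was 0.0015 in fibroblasts, -0.48 in macrophages and 0.33 in endothelium, beside -0.04, 0.11 and -0.03 over all genes. The values over all genes left out genes with 0 UMIs in a library. The macrophage value of the family kept Mmp2, with 0 UMIs in WT, as its highest ratio. It also took in Mmp3, Mmp9, Timp1 and Timp3, which were low in macrophages.

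In macrophages the median ratio of 7931 genes with at least 100 UMIs was 1.09, a shift of 0.13 on the log2 scale. Relative to that shift, the log2 ratio was -2.09 for Mmp12 and -3.54 for Mmp13. For Timp2 it was 0.70, and for Mmp14 it was -0.61. On that scale Mmp14 and Mmp3 also counted as lower in macrophages, which made 4 genes. The share of all genes that would count on that scale was not taken, so nothing is read from this number. Mmp3 in macrophages rests on 7 and 25 UMIs, at or near the level of the background fibroblast transcripts.

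Summed over the family, the 6 MMPs stood at 1764 CPM in WT fibroblasts and 1543 CPM in mgR fibroblasts (ratio 0.875, 0.839 to 0.912). The 3 inhibitors stood at 3529 and 3889 CPM there (1.10, 1.07 to 1.13). In macrophages the MMP sum was 792 CPM in WT and 197 CPM in mgR (0.249, 0.232 to 0.267), and the TIMP sum was 629 and 1110 CPM (1.76, 1.65 to 1.89). The WT macrophages thus had more MMP than TIMP UMIs, and the mgR macrophages had fewer. The 11 WT macrophages with most of each gene held 63.0% of the Mmp12 UMIs and 65.3% of the Mmp13 UMIs. The WT macrophages richer in Lyve1, Folr2 and Cd163 had 602 UMIs of Timp2 against 64 of Mmp12 and 37 of Mmp13. In mgR the balance also differed by subset. The mgR macrophages richer in Cx3cr1 and Cd72 had 1865 UMIs of Timp2 against 1192 of Mmp12, 186 of Mmp13 and 463 of Mmp14. Those richer in Lyve1, Folr2 and Cd163 had 12524 against 79, 111 and 181. In endothelium the inhibitors prevailed in both libraries, at 1403 and 2007 CPM against 76.5 and 90.6 CPM of MMPs. These are sums of RNA molecules, and neither enzyme activity nor protein was measured.

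Macrophages were divided by the genes of resident, vessel-associated cells (Lyve1, Folr2 and Cd163) and those of a contrasting set (Cx3cr1 and Cd72), and each cell went to the side with more UMIs. This gave 88 and 105 cells in WT and 981 and 437 cells in mgR, with 31 and 116 ties left out. Mmp12 stood at 664 CPM in WT and 314 CPM in mgR in the Cx3cr1 and Cd72 cells, and at 114 and 9.08 CPM in the Lyve1, Folr2 and Cd163 cells. Mmp13 followed the same order, at 438 and 49.0 CPM and at 66.2 and 12.8 CPM. Timp2 ran the other way, with 323 and 491 CPM in the Cx3cr1 and Cd72 cells and 1077 and 1439 CPM in the Lyve1, Folr2 and Cd163 cells. In both libraries, then, the subset with more Mmp12 and Mmp13 had less Timp2.

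The mix of the subsets differed between the libraries, and so did the ratios within them. Mmp12 had a ratio of 0.473 (0.425 to 0.526) in the Cx3cr1 and Cd72 cells and 0.0793 (0.0563 to 0.112) in the others, against 0.256 in all macrophages. Mmp13 had 0.112 (0.0927 to 0.134) and 0.193 (0.132 to 0.288). Timp2 had 1.52 (1.33 to 1.75) and 1.34 (1.23 to 1.45), both below the 1.78 of all macrophages. The within-subset ratios of Mmp12, Mmp13 and Timp2 kept the direction of the pooled ones. Mmp14 was 116 and 122 CPM in the Cx3cr1 and Cd72 cells (ratio 1.05, 0.828 to 1.34) and 28.6 and 20.8 CPM in the others (0.727, 0.436 to 1.3), so that within the subsets its intervals held 1.

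Fibroblasts were divided in the same way, by Fmod, Prg4 and Scx, genes of tendon-like and lubricating matrix, against Ptx3, Igfbp3 and Smoc2. The sides had 129 and 144 cells in WT and 418 and 354 cells in mgR. Mmp3 separated them most of the 6 fibroblast genes. It stood at 458 CPM in WT and 446 CPM in mgR in the Fmod, Prg4 and Scx cells, and at 2070 and 1997 CPM in the Ptx3, Igfbp3 and Smoc2 cells, which is 4.52 times (4.02 to 5.10) and 4.47 times (4.21 to 4.75) as much. Mmp14 was also higher in the Ptx3, Igfbp3 and Smoc2 cells, by 1.99 times (1.42 to 2.83) in WT and 2.40 times (1.91 to 3.02) in mgR. Mmp2 and Timp3 were lower in them, at 0.740 and 0.837 times for Mmp2 and at 0.860 and 0.769 times for Timp3. Timp1 did not separate the subsets in WT, at 259 and 252 CPM, and stood at 253 and 382 CPM in mgR, so that its ratio of mgR to WT was 0.975 (0.832 to 1.15) in the Fmod, Prg4 and Scx cells and 1.51 (1.29 to 1.78) in the Ptx3, Igfbp3 and Smoc2 cells. The lower Mmp14 in mgR was present on both sides, at 0.537 (0.384 to 0.759) and 0.646 (0.511 to 0.822).

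**Figure D4:**
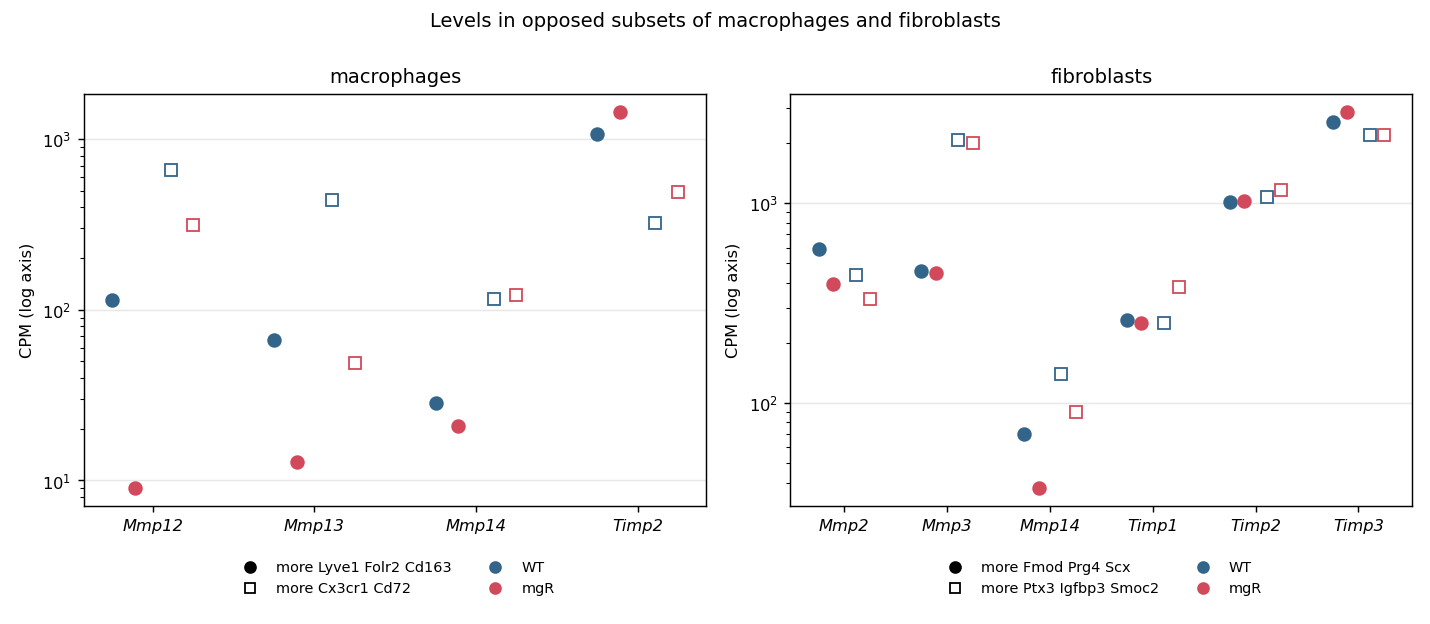
Levels in CPM (log axis) of the genes read in macrophages (left) and fibroblasts (right), by opposed subsets, which are cells with more UMIs of the genes named in the key. Filled circles and open squares stand for the subsets, blue for WT and red for mgR. Mmp12 and Mmp13 are higher and Timp2 lower in the Cx3cr1 and Cd72 macrophages of both libraries, and Mmp3 is at 2070 and 1997 CPM in Ptx3, Igfbp3 and Smoc2 fibroblasts against 458 and 446 CPM.

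Cells that met both the fibroblast and the endothelium rule, and no other, numbered 28 in WT and 302 in mgR, beside 29 and 150 endothelial cells. Their median depth was 5515 and 5831 UMIs, beside 4302 and 5222 in endothelium and 5182 and 6733 in fibroblasts. Their endothelial markers summed to 1660 and 2197 CPM, against 1284 and 1315 CPM in endothelium, and their fibroblast markers to 3364 and 2164 CPM, against 697 and 531 CPM in endothelium and 9254 and 8752 CPM in fibroblasts. They thus carried markers of both classes. Dcn made up 93.2% and 94.7% of their UMIs of the fibroblast rule, beside 88.8% and 88.9% in fibroblasts and 90% and 94.7% in endothelium. Timp3 was high in them, at 1648 CPM in WT and 2241 CPM in mgR (ratio 1.36, 1.20 to 1.54). The fibroblast MMPs were low, with Mmp2 at 86.7 and 70.9 CPM and Mmp3 at 12.4 and 52.3 CPM. The Mmp3 values rest on 2 and 107 UMIs, a ratio of 4.22 with an interval of 1.14 to 35.3. Over these cells and endothelium together, Timp3 stood at 1384 and 2053 CPM (ratio 1.48, 1.34 to 1.65) and Timp1 at 46.6 and 90.9 CPM (13 and 265 UMIs, ratio 1.95, 1.12 to 3.71). With these cells added, Timp3 was just short of 1.5-fold, and the direction was the same. Timp2 went the other way. It stood at 737 and 496 CPM in the cells that met both rules (ratio 0.672, 0.555 to 0.820). Together with endothelium it stood at 563 and 432 CPM (0.768, 0.650 to 0.912).

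The genes most alike in pattern were found by Pearson's r of log2(CPM + 10) over 10 sums, which are the 4 classes and the other cells in each library, over the 3519 genes that reached 100 CPM in 1 of the sums. The sums share libraries and depth, so r is a description. For Mmp2 these genes were Gsn, Lum and Col4a5 (r of 0.986 to 0.994). For Mmp3 they were Ccl19, Mfap4 and Antxr1 (0.998 to 0.999). For Mmp9 they were the neutrophil genes Retnlg, Ly6g and Cxcr2 (0.999 each). Mmp12 was most like Slamf7, Cd72 and Mir155hg (0.974 to 0.981). Mmp13 was most like Ifnb1 (0.994), Il10 (0.946) and Plau (0.936), a set of cytokine genes and a protease gene. Mmp14 was most like Raph1 (0.969) and Rrbp1 (0.964) and Timp1 like Col5a2, Vcan and Dcn (0.956 to 0.978). Timp2 had the loosest likeness, to Aldh2, Itm2b and Lamp2 (0.897 to 0.956), and Timp3 was like Cavin3 (0.995) and Nfib (0.994).

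Other genes of matrix proteolysis were counted by the same 1.5-fold rule from lists fixed with earlier results of these data known. Over all genes, 4.08% were higher and 5.56% lower in fibroblasts, 7.08% and 4.11% in macrophages, and 2.73% and 4.08% in endothelium. Of 15 further genes, which were other MMPs, Timp4 and Reck, a membrane-anchored MMP inhibitor, 8 had enough UMIs in fibroblasts and 2 in macrophages, and 0 passed in either direction. Of 20 ADAM and ADAMTS genes, 19 had enough UMIs in fibroblasts, of which 0 were higher and 3 were lower. The 3 were Adamts4 at 17.8 and 7.42 CPM, Adamts15 at 58.0 and 28.6 CPM, both aggrecanases, and Adamts12 at 19.5 and 11.9 CPM. In macrophages 1 of 10 was lower (Adamts4, 6 and 14 UMIs). In endothelium 1 of 10 was higher (Adamts5, an aggrecanase, at 153 and 266 CPM) and 2 were lower (Adam9 and Adam10).

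The next list held the plasminogen system, which can activate MMP precursors, and other activators, receptors and inhibitors such as Furin, Bsg and Ctss. In macrophages Plau and Plaur were lower in mgR, and 0 of the 13 genes of this list with enough UMIs were higher. Plau, the urokinase gene, stood at 566 CPM in WT and 222 CPM in mgR (ratio 0.392, 0.363 to 0.424). Its receptor gene Plaur stood at 430 and 184 CPM (0.427, 0.391 to 0.467). Both were lower in the library in which Mmp12 and Mmp13 were lower. In fibroblasts 1 of 13 was lower, Plat, the tissue plasminogen activator gene, at 199.6 and 114 CPM (0.572, 0.501 to 0.653). Plaur (2.37 and 11.9 CPM) and Ctss (4.15 and 19.8 CPM), a lysosomal protease of macrophages, were higher in fibroblasts, where the 6 macrophage markers summed to 22.5 and 25.7 CPM. In endothelium Furin, which cuts MMP propeptides, was lower (128 and 57.3 CPM) and Bsg, an inducer of MMPs, was higher (221 and 346 CPM).

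Of 12 AP-1 and NF-kB genes, 1 was lower in fibroblasts (Nfkb2, 59.8 and 39.4 CPM), 1 was lower in macrophages (Fosl1, 36.0 and 19.9 CPM) and 0 passed in endothelium. In macrophages Fos stood at 512 and 368 CPM (0.718, 0.665 to 0.777) and Jun at 426 and 385 CPM (0.904, 0.831 to 0.984). In fibroblasts Fos stood at 1254 and 1315 CPM (1.05, 1.0 to 1.10). Of 10 genes that tissue dissociation is known to raise, 2 were lower in mgR in fibroblasts and in macrophages, Hspa1a and Hspa1b, which encode heat shock proteins. Hspa1a stood at 263 and 123 CPM in fibroblasts and at 207 and 111 CPM in macrophages. In endothelium Ier2 was higher, at 145 and 285 CPM. In fibroblasts and macrophages the rest of the list did not pass. The values went both ways in fibroblasts, where Egr1 stood at 469 and 679 CPM (1.45, 1.34 to 1.56) and the median log2 ratio of the 10 genes was 0.06, against -0.33 in macrophages. Hspa1a and Hspa1b were lower in the classes and library in which Mmp12, Mmp13 and Mmp14 were lower, and their part in those ratios was not tested.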

How the data were processed

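The deposited files held UMI counts per gene and barcode, which the authors made from 10x Genomics 3′ version 3 libraries with Cell Ranger 7.1.0 on the mm10 build, per the submitters' processing notes. The annotation release and the treatment of intronic reads are not given in the sources used here. Cells were filtered at the limits that the study states, and barcodes that met more than 1 class rule (33 in WT, 354 in mgR) stayed out of the 4 classes. No doublet caller was run.

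UMIs were summed over the cells of a class and divided by all UMIs of the class (CPM). Intervals were exact at 95%: Poisson for levels, conditional binomial for ratios and Clopper-Pearson for shares of cells. A count of 0 was taken to allow 3 counts. Intervals cover counting error only. Shares were also taken after thinning each cell to 2000 UMIs. The precision follows from the class totals, 44781 UMIs in WT neutrophils to 13423530 in mgR macrophages.

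The genes, gene lists and subsets were chosen with earlier results of these data known. All 9 genes were named. Of other genes, the text names the 3 most alike to each, and list genes past 1.5-fold, up to 4 per class and direction. Some genes that these rules name are not reported here. Fos, Jun, the 6 markers and Fbn1 were named as background beside a result. Alternatives were overlapping class rules, doubled thresholds, a mitochondrial limit of 5%, per-cell means, thinning, scaling by the median gene ratio, removal of the top 5% of cells, cells by sex-linked transcripts, a minimum of 0 or 50 UMIs, and removal of macrophages with dendritic markers. The ratio and call steps were tested on simulated counts. Positions came from the GRCm38 annotation and promoters from RefSeq (GRCm38.p6). Python 3.11.15, numpy 2.4.6, scipy 1.17.1, pandas 2.3.3 and matplotlib 3.10.9 were used.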

Additional observations from a re-analysis of the deposited data

Results flagged for a closer look

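The log2 ratio of Mmp3 between mgR and WT fibroblasts was 0.37 where cells held Xist and no Y-linked UMIs, and -0.41 where they held Y-linked and no Xist UMIs. It drew attention because the 2 sets of cells moved in opposite directions, with intervals of counting error that left out 0 in both. With 1 library per genotype and an unknown number of mice behind each set, the difference was not tested.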

How the results depend on the processing

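Of the 9 genes in fibroblasts, macrophages and endothelium, those that passed 1.5-fold kept their direction under the alternatives run, of which the removal of the top 5% of cells lowers the ratios of Mmp12 and Mmp13 by construction. Counts from per-cell means rest on the fold alone, with no interval, so that 2 choices changed there. In fibroblasts, the number of genes higher in mgR went from 0 to 1 with doubled class thresholds and among Xist cells, and the number lower went from 1 to 2 with overlapping class rules and to 0 among Xist cells. In macrophages, the number higher went from 1 to 3 with overlapping rules and to 2 with per-cell means, and the number lower went from 2 to 4 with per-cell means and with median scaling and to 3 with the mitochondrial limit of 5%, thinning and Y-linked cells. In endothelium, the number higher went from 1 to 2 with overlapping rules and with per-cell means and to 0 with thinning, median scaling, Xist cells or Y-linked cells, and the number lower went from 0 to 1 with per-cell means and among Y-linked cells. The log2 ratio of Mmp14 in fibroblasts went from -0.76 to -0.48 among Xist cells. That of Mmp12 in macrophages went from -1.96 to -2.10 with per-cell means, -2.12 with thinning, -4.49 without the top 5% of cells, -1.61 among Xist cells and -2.45 among Y-linked cells. That of Mmp13 went from -3.41 to -3.15 with thinning, -5.89 without the top 5%, -4.01 among Xist cells and -3.15 among Y-linked cells. That of Timp2 in macrophages went from 0.83 to 0.70 with median scaling and 0.97 among Xist cells. That of Timp3 in endothelium went from 0.66 to 0.31 among Xist cells and 0.26 among Y-linked cells. The cause of these changes was not tested. The removal of macrophages with dendritic markers was chosen after seeing the data and left the counts at 1 higher and 2 lower. Mmp12 was highest in the other cells of mgR in place of macrophages among Y-linked cells, and Mmp9 was highest in macrophages of WT among Xist cells, where there were 0 neutrophils. In mgR, Mmp14 was highest in fibroblasts in place of endothelium with overlapping rules, the mitochondrial limit of 5% and Xist cells. Timp2 in mgR was highest in fibroblasts in place of macrophages with per-cell means and thinning. No paired analysis was possible because each genotype had 1 library.

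Depth limits the neutrophils, with 44781 and 81608 UMIs, and WT endothelium, with 29 cells and 117580 UMIs, where a 0 allows up to 67.0, 36.8 and 25.5 CPM and a ratio has a wide interval. Animals within a library could not be separated, so no spread between mice entered any value.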
